A study of Mus musculus with 10 samples.

Results

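The Wnt pathway genes Tcf7l1, Tcf7l2, Dkk3, Ctnnb1 and Lrp6, were followed in B16-F1 mouse melanoma cells. They are 5 of the 10735 genes of the deposited table, were picked by symbol, and were selected on their already known levels in both groups compared here, Tcf7l1 and Dkk3 for their difference between them. Their levels and differences are therefore given as a description, without a test. Wild-type B16-F1 cells (5 libraries) were compared with B16-F1ΔFOXC2 cells (5 libraries), derived cells that, by their label, lack FOXC2, a forkhead factor that binds DNA. Both groups are the same mouse melanoma line without any other treatment, grown for 24 h in RPMI-1640 with serum to near confluence, at passages 5 to 10. Whether the ΔFOXC2 cells are 1 clone or several is not stated, nor whether the 5 libraries of a group came from separately kept cultures, so p-values measure the spread between these libraries, which may be technical.

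The unit was FPKM, the fragments of a gene scaled by transcript length and by the mapped fragments of the library. It was computed by the authors, and the sequencing depth is unknown. The FPKM of a library summed to 240441 to 251273, with medians of 7.84 to 8.14. Foxc2 was not analysed here, so the ΔFOXC2 label could not be checked by its target. All 8 melanocyte identity genes examined were present, with summed levels of 3241 to 3714 FPKM in wild-type cells and 3889 to 4276 FPKM in ΔFOXC2 cells. Each of the 8 was lower in the wild type, with a median log2 difference of -0.24, against 0.01 over all tested genes. Mitf and Dct of these also stand in the list of Wnt target genes. The part of the identity genes in the results below was not tested. Of the 6 fibroblast markers examined, Col1a2 alone was analysed, at 0.581 to 0.931 FPKM, and the leukocyte, endothelial and keratinocyte markers were not analysed here. In bulk RNA, fewer cells of a type and less RNA per cell cannot be told apart.

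In the canonical Wnt pathway, secreted Wnt ligands bind Frizzled receptors together with the co-receptor Lrp6, which holds back the cytoplasmic complex that otherwise marks β-catenin, the product of Ctnnb1, for destruction. Stabilised β-catenin enters the nucleus and binds factors of the TCF/LEF family, among them Tcf7l1 and Tcf7l2, which occupy the DNA of target genes. Tcf7l1 is known mainly as a repressor of such genes when β-catenin is not bound, while Dkk3 is a secreted glycoprotein of the Dickkopf family whose effect on Wnt signalling varies between cell types. In the melanocyte lineage the pathway is known for its role in specifying the cells from the neural crest.

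The promoters of the genes whose regulation the measurements bear on are shown first, as the 250 bases before a RefSeq start of GRCm38.p6. They were searched on both strands for CTTTGA, the core of TCF/LEF sites, and TAAACA, the core of forkhead sites; capitals mark the matches. Tcf7l1 and Tcf7l2 are the TCF factors compared. Promoters were searched for 14 of the 20 called genes of the pathway lists. Among these, Sgk1 and Tnfrsf19 held the TCF/LEF core, at some but not all of their starts. For both, a window that holds it is shown.
Tcf7l1, chr6:72789046-72789295, minus strand: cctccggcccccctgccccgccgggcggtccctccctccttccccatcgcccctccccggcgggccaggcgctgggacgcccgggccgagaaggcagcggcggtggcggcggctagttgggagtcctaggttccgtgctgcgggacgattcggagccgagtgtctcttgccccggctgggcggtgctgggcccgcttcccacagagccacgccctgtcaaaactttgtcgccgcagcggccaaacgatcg
Tcf7l2 first start, chr19:55741560-55741809, plus strand: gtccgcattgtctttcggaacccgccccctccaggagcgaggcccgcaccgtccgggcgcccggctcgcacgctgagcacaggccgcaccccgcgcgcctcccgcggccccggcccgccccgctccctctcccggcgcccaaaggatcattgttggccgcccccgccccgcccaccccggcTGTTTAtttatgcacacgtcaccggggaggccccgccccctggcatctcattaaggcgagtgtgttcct
Sgk1 second start, chr10:21978422-21978671, plus strand: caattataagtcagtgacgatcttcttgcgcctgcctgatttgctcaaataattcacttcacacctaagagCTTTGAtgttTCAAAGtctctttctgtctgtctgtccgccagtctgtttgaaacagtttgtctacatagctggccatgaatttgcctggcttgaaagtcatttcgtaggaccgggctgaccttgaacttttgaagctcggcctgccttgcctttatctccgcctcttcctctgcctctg
Tnfrsf19 second start, chr14:61037988-61038237, minus strand: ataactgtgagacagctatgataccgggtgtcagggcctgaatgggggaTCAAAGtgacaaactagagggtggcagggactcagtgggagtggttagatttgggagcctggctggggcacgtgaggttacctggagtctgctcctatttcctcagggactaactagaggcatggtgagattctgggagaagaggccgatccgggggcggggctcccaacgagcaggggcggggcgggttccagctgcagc
The Tcf7l1 window has a GC content of 73.6% and 29 CpG dinucleotides, and holds neither motif. The first Tcf7l2 window, with a GC content of 72.8%, holds 1 forkhead core on the minus strand, 69 bases before the start. The second Tcf7l2 start and both Ctnnb1 starts hold neither motif, and the sequence tables gave promoters for 3 of the 5 genes. Among all 32851 promoters of the table, 13.8% hold the TCF/LEF core and 12.0% the forkhead core, and among the 10658 promoters of tested genes 10.1% and 7.41%. A match or its absence describes these letters in this window alone.

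Tcf7l1 (ENSMUSG00000055799.13, chr6:72626378-72789254, minus strand, GRCm38) was the more abundant TCF factor. Its FPKM was 15.3, 15.4, 14.4, 14.8 and 12.0 in wild-type replicates 1 to 5, and 9.16, 9.76, 8.99, 6.89 and 8.14 in ΔFOXC2 replicates 1 to 5. Every wild-type library lay above every ΔFOXC2 library, and wild-type replicate 5 was the lowest of its group. The mean was 14.4 ± 1.40 FPKM (SD, n = 5) against 8.59 ± 1.11, which is 1.68-fold higher in wild-type cells and a difference of 0.74 (SE 0.097) in log2(FPKM + 0.1). Exons of Tcf7l1 overlap the antisense gene Gm15401, and since it is not stated whether the authors' counting used the strand, reads of the pair cannot be told apart.

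Tcf7l2 (ENSMUSG00000024985.18, chr19:55741810-55933654, plus strand), the second TCF factor of the set, was expressed at a lower level. Its FPKM was 2.59, 3.04, 2.73, 2.69 and 2.48 in wild-type cells and 2.85, 2.54, 2.65, 2.31 and 2.32 in ΔFOXC2 cells. The groups overlapped, with means of 2.71 ± 0.211 and 2.53 ± 0.229 FPKM and a log2 difference of 0.09 (SE 0.081).

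Together with Tcf7, which encodes the remaining TCF factor analysed here, the TCF transcripts summed to 18.7 ± 1.39 FPKM in the wild type (16.4 to 20.0) and 12.5 ± 1.12 in ΔFOXC2 cells (10.7 to 13.5). Lef1 was not analysed here. Tcf7l1 made up 77.1 ± 2.39% of the sum in wild-type cells and 68.8 ± 3.08% in ΔFOXC2 cells, and Tcf7l2 made up 14.5% and 20.4%. The ratio of Tcf7l1 to Tcf7l2 ranged from 4.84 to 5.91 in wild-type cells and from 2.99 to 3.85 in ΔFOXC2 cells. Tcf7 had 1.54 ± 0.267 and 1.33 ± 0.260 FPKM (log2 difference 0.20, limma adjusted p = 0.2985).

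**Figure D1:**
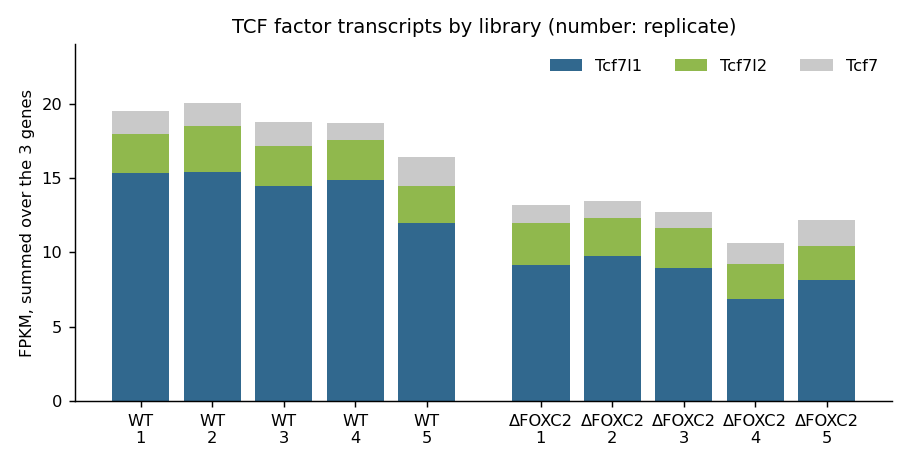
FPKM of Tcf7l1, Tcf7l2 and Tcf7 stacked for each of the 10 libraries (WT, wild type; numbers are replicates). The wild-type bars reach 16.4 to 20.0 FPKM and the ΔFOXC2 bars 10.7 to 13.5, and the Tcf7l1 segment differs most between them.

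Dkk3 (ENSMUSG00000030772.6, chr7:112116017-112159057, minus strand) was lower in the wild type. Its FPKM was 18.3, 17.5, 19.0, 18.9 and 20.2 in wild-type cells and 29.0, 32.1, 28.5, 32.5 and 32.9 in ΔFOXC2 cells. The groups did not overlap: the lowest ΔFOXC2 library exceeded the highest wild-type library. The means were 18.8 ± 1.00 and 31.0 ± 2.08 FPKM, 1.65-fold lower in the wild type, and the log2 difference was -0.72 (SE 0.054). The ratio of Dkk3 to Tcf7l1 accordingly was 1.13 to 1.68 in wild-type cells and 3.16 to 4.72 in ΔFOXC2 cells.

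Lrp6 (ENSMUSG00000030201.15, chr6:134446476-134566965, minus strand), the Wnt co-receptor, had 16.7, 21.7, 21.0, 20.0 and 21.0 FPKM in wild-type cells and 16.1, 17.4, 18.2, 15.9 and 15.9 in ΔFOXC2 cells. Wild-type replicate 1 lay inside the ΔFOXC2 range and the other 4 above it. The means were 20.1 ± 1.97 and 16.7 ± 1.06 FPKM, with a log2 difference of 0.26 (SE 0.072).

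Ctnnb1 (ENSMUSG00000006932.17, chr9:120929216-120960507, plus strand), which encodes β-catenin, was the most abundant of the 5, above 95.9% of tested genes by its mean over the 10 libraries. Its FPKM was 92.8, 96.6, 99.5, 94.6 and 96.2 in wild-type cells and 72.3, 74.0, 95.5, 95.4 and 98.6 in ΔFOXC2 cells. Replicates 1 and 2 of the ΔFOXC2 group were low and the other 3 lay within the wild-type range, so the groups overlapped. The means were 95.9 ± 2.48 and 87.1 ± 12.9 FPKM, with a log2 difference of 0.15 (SE 0.087); leaving out ΔFOXC2 replicates 1 and 2, a choice made after seeing the data, gave -0.01, and leaving out either alone gave 0.09 and 0.10. Its coefficient of variation was 2.59% in wild-type cells and 14.8% in ΔFOXC2 cells, beside medians over all tested genes of 7.90% and 7.64%. Such a split, with replicates 1 and 2 both under 0.8 of the lowest of the other 3, was seen in 34 of 10570 tested genes. Exons of Ctnnb1 overlap those of Ulk4, which runs on the opposite strand and was not analysed here, and Mir7090.

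**Figure D2:**
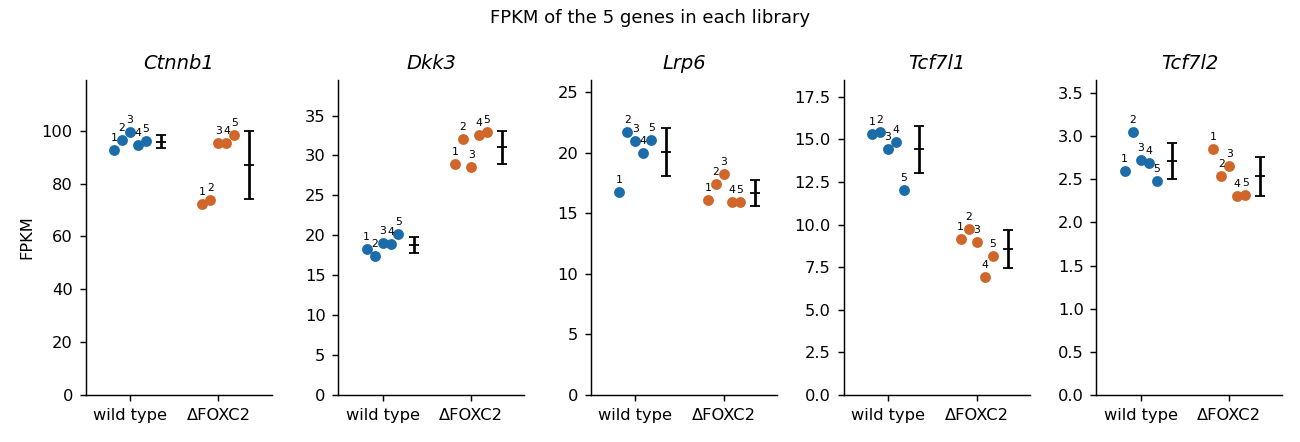
FPKM of each of the 5 genes in the 5 wild-type (blue) and 5 ΔFOXC2 (orange) libraries, numbered by replicate, with the mean and SD at the side and axes from 0. The groups are separate for Dkk3 and Tcf7l1 and overlap for Ctnnb1, Lrp6 and Tcf7l2.

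By mean over the 10 libraries the order was Ctnnb1 (91.5 FPKM), Dkk3 (24.9), Lrp6 (18.4), Tcf7l1 (11.5) and Tcf7l2 (2.62). Neighbours in this order did not overlap in any library in ΔFOXC2 cells, whereas Dkk3 and Lrp6 overlapped in the wild type. A gene was called when limma gave it p no higher than 0.05 after Benjamini-Hochberg adjustment and 1.5-fold or more, a rule that took 8.62% of the 10570 tested genes, 3.65% higher and 4.97% lower in the wild type. Among the 5 genes, 1 was past this rule in each direction, and 2 of 5 had groups that did not overlap, a pattern seen in 30.0% of tested genes; because the genes were selected on this contrast, nothing is read from these counts. The other genes of the pathway were taken from lists of 203 genes, 135 of them in the table and 134 tested. Of these, 10 were higher and 10 lower in the wild type (5 and 5 with a pseudocount of 1), together 14.9% beside 8.62% of all tested genes. The median log2 difference was 0.07, against 0.01 over all tested genes. The lists too were chosen with earlier results of these data known, so nothing is read from these counts.

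At the ligand and receptor level, none of the 19 Wnt ligands was analysed here. Rspo1, which encodes a secreted enhancer of Wnt signalling, was lower in the wild type (log2 difference -1.15, limma adjusted p = 0.006148). It had 0.0924 to 0.552 FPKM against 0.680 to 0.990 in ΔFOXC2 cells, and with a pseudocount of 1 it was not called. Its wild-type mean of 0.341 FPKM was under the filter of 0.5 FPKM, so it was tested only through its ΔFOXC2 level. Without ΔFOXC2 replicates 1 and 2 it fell under the filter. Fzd9, a Frizzled receptor gene, was higher, at 0.737 to 1.35 against 0.265 to 0.472 FPKM (1.25, adjusted p = 0.0002245), and was also not called with a pseudocount of 1. Its ΔFOXC2 mean of 0.336 FPKM was under the same filter, so it was tested only through its wild-type level. The other 9 tested Frizzled and co-receptor genes were not called. Among them Fzd7, an abundant receptor gene, had 36.5 to 39.9 FPKM in wild-type cells and 24.7 to 27.6 in ΔFOXC2 cells (0.55, adjusted p = 1.984e-06), under the fold threshold and on chromosome 1, where the median log2 difference was -0.26. Ryk, an alternative Wnt receptor, had a log2 difference of 0.20 (adjusted p = 0.001603). Wls, needed for Wnt secretion, had -0.10 (adjusted p = 0.4114), and the R-spondin receptor gene Lgr4 had 0.23 (adjusted p = 0.02204).

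Of the antagonists, Kremen1, the Dickkopf co-receptor, had 3.45 to 3.97 FPKM in wild-type cells and 4.71 to 5.34 in ΔFOXC2 cells (log2 difference -0.39, limma adjusted p = 0.0003134), under the fold threshold. It was the one gene of the Dickkopf and Kremen list tested besides Dkk3. The secreted antagonists Igfbp4 and Frzb had log2 differences of 0.38 and 0.33 (adjusted p = 6.79e-05 and 0.001268), also under the threshold.

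Inside the cell, 2 of 8 adaptor genes were called, both higher in the wild type, and 2 of 25 genes of the destruction complex, 1 in each direction. The list medians were 0.17 and 0.09 on the log2 scale. The share of the destruction complex was near the 8.62% of all tested genes, and 8 adaptor genes are too few to set beside it. With a pseudocount of 1, 1 adaptor gene was still called and no gene of the destruction complex was. Ccdc88c, a Dishevelled-binding protein gene, had 3.86 to 4.45 FPKM against 2.09 to 2.62 (log2 difference 0.82, limma adjusted p = 7.865e-06), and Dact1, another Dishevelled-binding regulator, 1.07 to 1.50 against 0.575 to 0.816 (0.68, adjusted p = 0.001142), though not with a pseudocount of 1. Siah1a, a ubiquitin ligase for β-catenin, had 9.54 to 10.8 against 5.52 to 7.23 FPKM (0.60, adjusted p = 6.882e-05). It lies on chromosome 8, whose tested genes had a median of 0.36, and it was not called with a pseudocount of 1 (0.54), without wild-type replicate 5 (0.58) or without ΔFOXC2 replicate 1 (0.54). Axin2 was the gene called lower in this group and is described with the targets. Of the 27 nuclear partners tested, 3 were called, all higher, which is 11.1% beside 8.62% of all tested genes and so near the background; the list median was 0.07. Aes, a short Groucho relative, had 12.7 to 14.2 against 6.47 to 7.42 FPKM (0.92, adjusted p = 3.03e-07). Bcl9, which bridges β-catenin and Pygopus, had 2.50 to 3.55 against 1.12 to 1.45 (1.17, adjusted p = 6.322e-06), and Pygo1, a Pygopus gene, had 2.39 to 2.80 against 1.04 to 1.27 (1.07, adjusted p = 2.178e-06).

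Among 25 tested textbook Wnt target genes, 8 were called, 2 of them higher and 6 lower in the wild type. That is 32.0%, beside 8.62% of all tested genes, with a median log2 difference of -0.12. The list was chosen with earlier results of these data known, so nothing is read from this share. With a pseudocount of 1, Ccnd1 and Met were the 2 of the 25 still called, 8.0% beside 5.37% of all tested genes. Axin2, the feedback scaffold of the destruction complex, had 1.41 ± 0.300 FPKM in wild-type cells and 2.27 ± 0.226 in ΔFOXC2 cells (log2 difference -0.66, limma adjusted p = 0.001662), and wild-type replicate 5 at 1.93 FPKM was nearest to the ΔFOXC2 libraries. Ccnd1, which encodes cyclin D1, had 42.5 to 48.0 against 71.1 to 102.3 FPKM (-0.94, adjusted p = 7.265e-06). Met, the hepatocyte growth factor receptor gene, had 9.72 to 31.5 against 45.7 to 59.2 FPKM (-1.42, adjusted p = 0.001072). Sgk1, a kinase gene, had 1.11 to 1.49 against 1.89 to 2.48 (-0.69, adjusted p = 0.0004445), Tnfrsf19, a TNF receptor family gene, 1.89 to 2.27 against 2.90 to 3.96 (-0.68, adjusted p = 0.0001723), and Wisp1, a matricellular gene, 1.86 to 2.42 against 2.73 to 4.27 (-0.69, adjusted p = 0.0009192). Axin2, Sgk1, Tnfrsf19 and Wisp1 were not called with a pseudocount of 1.

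The 2 target genes called higher were Tcf4 and Vegfa. Tcf4, which encodes a basic helix-loop-helix protein and not Tcf7l2, had 2.02 to 2.85 against 1.01 to 1.81 FPKM (log2 difference 0.83, limma adjusted p = 0.002113), and was not called with a pseudocount of 1. Vegfa, an angiogenic growth factor gene, had 7.33 to 13.9 against 4.30 to 10.1 FPKM, overlapping between groups (0.60, adjusted p = 0.04005). It lost its call with a pseudocount of 1, with robust variances and without the variance trend. It also lost it without wild-type replicate 3, 4 or 5 and without ΔFOXC2 replicate 1, 2, 4 or 5 (adjusted p = 0.0557 to 0.08919).

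**Figure D3:**
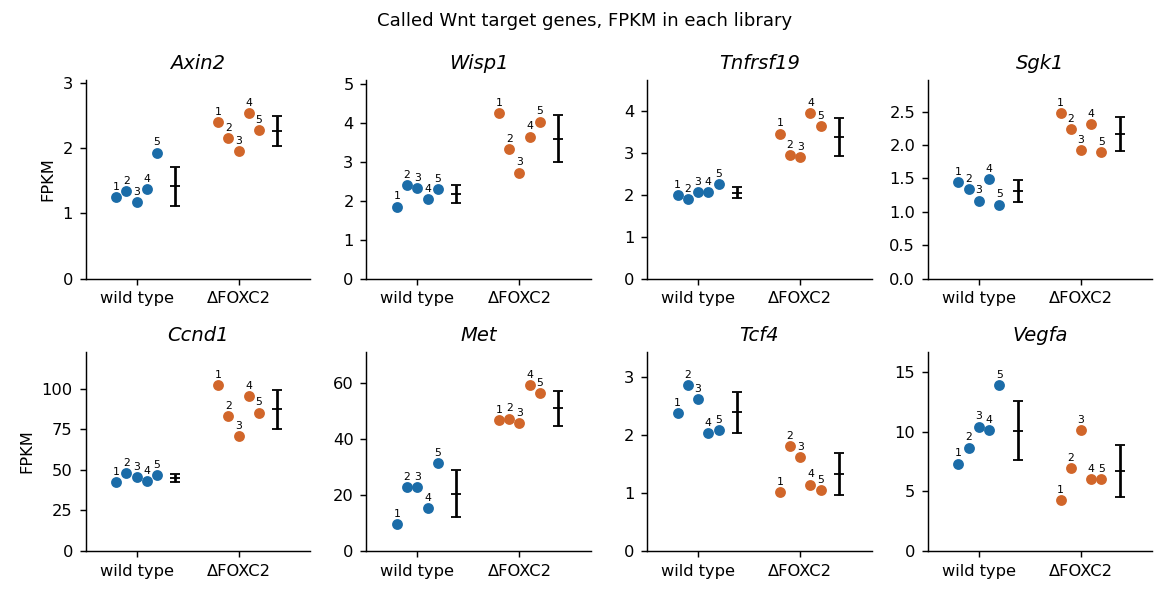
FPKM of the 8 called target genes in each wild-type (blue) and ΔFOXC2 (orange) library, numbered by replicate, with mean and SD. The first 6 panels are lower and Tcf4 and Vegfa higher in the wild type, with overlapping groups for Vegfa.

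Promoters were searched for 14 of the 20 called pathway genes, and the others were not examined. Of the 14, 2 held the TCF/LEF core and 1, Nfatc2, the forkhead core. Sgk1 holds the TCF/LEF core at its second start 2 times, shown above, and once at its first start, and Tnfrsf19 holds it once at its second start, 201 bases before it. Starts 3 to 6 of Sgk1 and the first start of Tnfrsf19 hold neither motif. Nfatc2 holds the forkhead core at its first start and not at its second. Genes with several starts have more windows, so these gene counts are not set against the share of all promoters.

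In the β-catenin-independent branch, Nfatc1 and Nfatc2, calcium-responsive transcription factor genes, were lower in the wild type, with 0.263 to 0.522 against 1.11 to 1.47 FPKM (log2 difference -1.64, limma adjusted p = 1.041e-05) and 5.49 to 6.76 against 11.6 to 14.0 FPKM (-1.11, adjusted p = 3.587e-07). The wild-type mean of Nfatc1, 0.358 FPKM, was under the filter of 0.5 FPKM, so Nfatc1 was tested only through its ΔFOXC2 level. Celsr2, a planar polarity cadherin gene, was higher, with 1.48 to 2.39 against 0.797 to 1.08 FPKM (1.01, adjusted p = 0.0001211). Of the 27 tested genes of this branch, 1 was called higher and 2 lower. That is 11.1%, beside 8.62% of all tested genes, and so near the background. In the separate list of cadherin and catenin adhesion genes, 1 of 6 tested genes was called. With 6 genes, the list is too small to set beside the 8.62% of all tested genes. The called gene was Vcl, which encodes vinculin at cell contacts and was lower, with 10.8 to 12.1 against 19.2 to 22.7 FPKM (-0.83, adjusted p = 5.052e-07). The catenin genes Ctnna1 and Ctnnd1, which bind cadherins beside β-catenin, had log2 differences of 0.05 and 0.02 (adjusted p = 0.3293 and 0.8109).

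**Figure D4:**
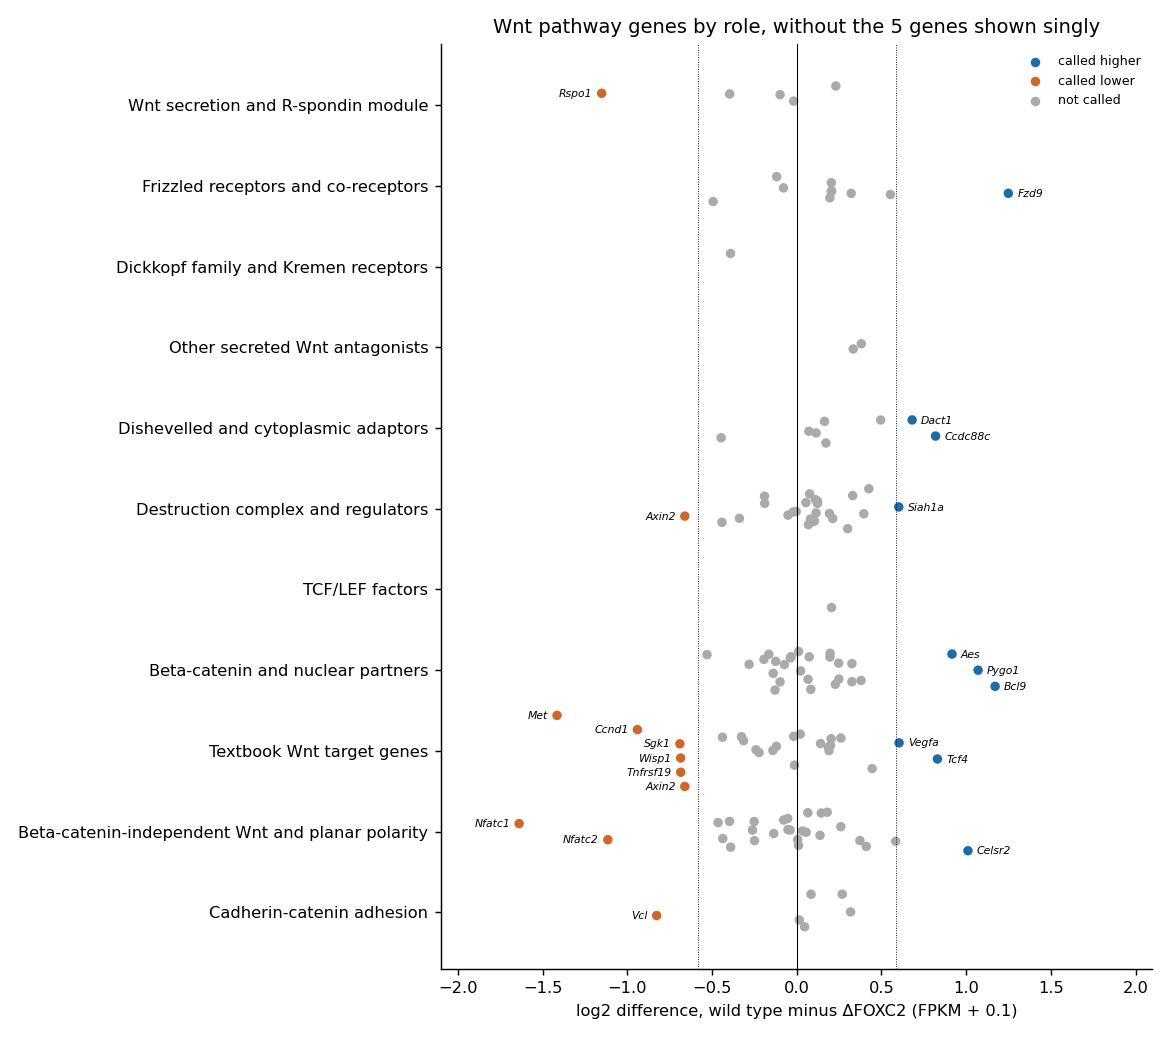
Log2 difference (wild type minus ΔFOXC2, FPKM + 0.1) of the tested pathway genes by role, without the 5 genes described singly; dotted lines mark 1.5-fold and called genes are named. The target row has 6 genes called lower and 2 higher, and the nuclear partner row 3 called higher; Axin2 appears in both lists that hold it.

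Genes with the profile nearest to Tcf7l1, by the root mean square difference of the log2 profiles over the 10 libraries, were Dab2 (0.0817), Plxnb1 (0.0951), Dcaf15 (0.0986), Basp1 (0.107) and 2310022B05Rik (0.116). Dcaf15 and 2310022B05Rik lie on chromosome 8. Those nearest to Dkk3 were Lima1 (0.0564), Smyd2 (0.0564), Mr1 (0.0592), Alg6 (0.0606) and Gpc1 (0.0711), and Smyd2, Mr1 and Gpc1 lie on chromosome 1. With a pseudocount of 1, 3 of the 5 named for Tcf7l1 and 2 of the 5 for Dkk3 stayed among the nearest 5.

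Over all tested genes of a chromosome, the median log2 difference was 0.03 on chromosomes 6 and 7, 0.01 on chromosome 9 and 0.04 on chromosome 19. Within 1 Mb, Tcf7l1 had 21 tested neighbours with a median of 0.03, of which Atoh8 (1.48) and Tmsb10 (0.65) were called higher. The rule called 8.62% of all tested genes. Dkk3 had 3 neighbours, Usp47, Parva and Tead1, with a median of 0.15, and none was called. Usp47 (limma adjusted p = 0.0423) was under the fold threshold, and Tead1 had the largest difference (0.73, adjusted p = 0.2611). Lrp6 had 10 tested neighbours and Ctnnb1 had 13, each set with a median of 0.10. Among them, Emp1 (2.08) near Lrp6 and Ccdc13 (0.71) near Ctnnb1 were called higher, and Ttc21a near Ctnnb1 lower (0.474 against 1.05 FPKM). Atoh8 had means of 1.27 FPKM in wild-type and 0.401 in ΔFOXC2 cells, and Emp1 1.14 and 0.193. Atoh8, Emp1 and Ttc21a thus each had a group mean under the filter of 0.5 FPKM. These genes were tested only through the group where they are high.

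**Figure D5:**
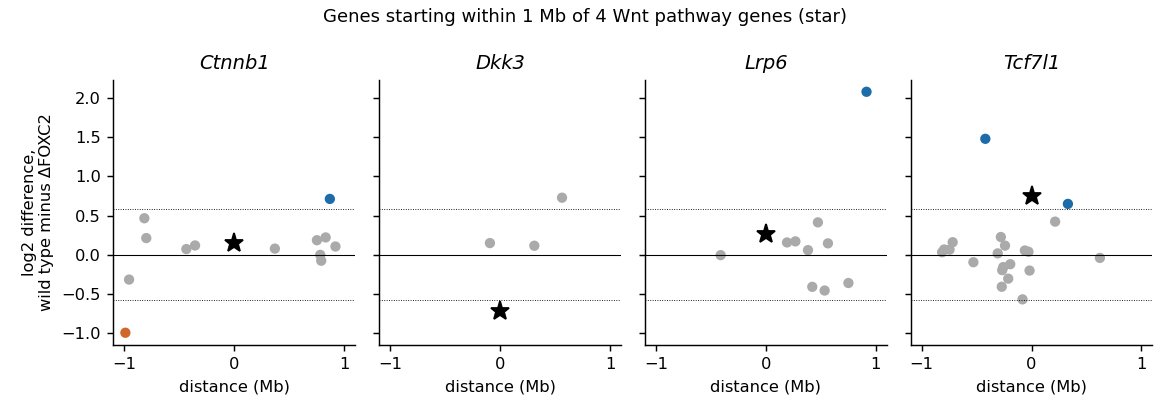
Log2 difference (wild type minus ΔFOXC2) of tested genes against the distance of their start from that of Ctnnb1, Dkk3, Lrp6 or Tcf7l1 (star), in Mb; blue is called higher, orange called lower, grey not called and dotted lines mark 1.5-fold. The 21 neighbours of Tcf7l1 have a median of 0.03, and none of the 3 neighbours of Dkk3 is called.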

How the data were processed

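RNA was selected on oligo(dT), made into strand-marked dUTP libraries and read from both ends on an Illumina HiSeq, per the labels' protocols. FPKM values per gene were deposited by the authors in one table; FastQC, cutadapt, HISAT2 and StringTie with GRCm38 are named without versions, per the submitters' processing notes. Whether counting used the strand is not given in the sources used here. Differences, wild type minus ΔFOXC2, were fitted across all genes with limma 3.58.1 (lmFit, eBayes with trend, two-sided) in R 4.3.3 on log2(FPKM + 0.1), for the 10570 genes that averaged 0.5 FPKM or more, without covariates; this scale understates changes of low genes. Genes were called at 1.5-fold or more with p no higher than 0.05 after Benjamini-Hochberg adjustment. The 5 genes and all lists were chosen with earlier results of these data known. Besides the 5 genes, the text names the 5 nearest profiles of Tcf7l1 and of Dkk3 and every called pathway gene. For lists with fewer than 2 called it names the 2 most abundant tested genes, and it names all tested TCF/LEF, Dickkopf and Kremen genes. Any other gene was named after its values were seen. The neighbours of Tcf7l2 are not reported here. Alternatives were other pseudocounts, filters, scalings and variance settings, a replicate block and leaving out libraries.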

Additional observations from a re-analysis of the deposited data

Results flagged for a closer look

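In 2 of the 70 groups of 5 libraries examined, 1 library stood apart from the other 4 by more than Dixon's 95% critical value of 0.71 of the group's range; chance flags about 1 group in 20. Tcf7l1 had 12.0 FPKM in wild-type replicate 5 against 14.4 to 15.4 in the other wild-type libraries (gap over range 0.716), and without that library its log2 difference was 0.81. Axin2 had 1.93 FPKM in the same library against 1.18 to 1.37 in the other 4 (0.745), and without it its log2 difference was -0.77 (limma adjusted p = 0.0001456).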

How the results depend on the processing

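Tcf7l1 stayed higher in the wild type under all 20 alternatives (log2 difference 0.67 to 0.84), Dkk3 lower (-0.75 to -0.69) and Lrp6 higher (0.23 to 0.32), and Tcf7l2 ranged from 0.05 to 0.15 under the 19 that kept it. Ctnnb1 went from 0.15 to -0.0086 when ΔFOXC2 replicates 1 and 2 were left out together, to 0.087 without replicate 1 alone and 0.0956 without replicate 2 alone, and lay between 0.14 and 0.20 under the others. With a pseudocount of 1, 230 genes were called higher and 338 lower, and 5 and 5 of the pathway lists; with a filter at a mean of 5 FPKM, which tests fewer genes, the counts were 123 and 217, and 3 and 4. A replicate block gave 390 and 526, and 10 and 10 for the pathway. Whether replicate numbers pair the samples is not stated. Same-numbered libraries correlated in their deviations at -0.121 to 0.137, and not every library correlated best with its own number. Correlations this weak cannot settle whether the samples were paired. Leaving out each library in turn gave 370 to 409 genes called higher and 505 to 554 lower, with 8 to 12 higher and 10 to 11 lower in the pathway lists. Depth is unknown, so low genes such as Rspo1 and Fzd9 have no counting error given.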

Other observations

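The library with the lowest Tcf7l1 was replicate 5 in the wild type and replicate 4 in ΔFOXC2 cells. Of the 25 tested Wnt target genes, 4 had their highest value of the group in both of these libraries, beside 5.61% of all tested genes. In the other direction, 2 had their lowest value in both, beside 4.90% of all tested genes. Axin2 is among the 4 and was already flagged above in wild-type replicate 5, so it adds no separate observation. The libraries were picked by Tcf7l1, a gene itself selected on its difference between the groups. The counts were looked at after the values were seen and are given without a test, so nothing is read from them.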
